A study of Drosophila melanogaster with 5 samples.

Results

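The genes that encode the proteins of the cytosolic ribosome were examined as a set of promoters that every cell of the midgut uses. All protein-coding genes on the 6 large chromosome sequences of the Drosophila genome (release BDGP6) whose symbol starts with RpL or RpS followed by a digit or by P were taken, without mRp, the mitochondrial ribosomal proteins. This gave 92 genes of 13945, of which 54 are named for the large subunit (RpL) and 38 for the small subunit (RpS). The symbols have 78 stems, and 27 of the genes share their stem with another gene (such as RpS28a, RpS28b and RpS28-like). The choice used names only and no measured value.

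The study asked how alike the open chromatin of midgut cell types is, and whether it changes when cells switch fate after the loss of a transcription factor. ATAC-seq, in which the Tn5 transposase cuts accessible DNA, had been carried out on 5 populations of sorted cells, each represented here by 1 library: esg+ progenitor cells (esg-Gal4ts, UAS-GFP), enteroendocrine cells (EEs; prosV1-Gal4ts, UAS-GFP), enterocytes (ECs; Myo1A-Gal4ts, UAS-GFP), Pros-depleted EEs (prosV1-Gal4ts with UAS-GFP and UAS-pros-RNAi) and, as the last, Ttk-depleted ECs (Myo1A-Gal4ts with UAS-GFP, UAS-ttk-RNAi and pros-mCherry). Values of several libraries given without their names stand in this order. The flies were adult females of 5 to 7 days that came from crosses at 18 °C and were then held at 29 °C for 7 days, the temperature at which the GAL80ts repressor shared by all groups releases the drivers. Each library came from about 40000 cells out of 100 to 150 pooled guts, sorted for GFP, and for the Ttk-depleted ECs for weak GFP together with mCherry. The drivers limit each group to the cells that express them, so the esg+ group mixes stem cells with their immediate daughters, and the Ttk-depleted group holds only cells in which the pros-mCherry reporter was on. The names of the peaks carry marks that the study does not explain, "5w" in progenitor cells and a replicate number in EEs, ECs and Pros-depleted EEs.

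Ribosomal proteins are made in near-equal amounts and at a high rate in every growing cell, and in flies the loss of 1 copy of many of these genes gives the Minute phenotype of slow growth and thin bristles. Their promoters are known for an initiator of pyrimidines, the TCT motif, which takes the place of the common initiator and is read by a dedicated form of the transcription machinery. Other elements known from housekeeping promoters in flies are the DRE, bound by Dref, and Motif 1. In the adult midgut, progenitor cells divide and grow, while EEs do not divide and ECs copy their DNA without dividing as they mature.

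The sequences around 12 transcription start sites (TSSs) are shown because the peaks of these genes span the whole range of the set: 5 with a known special role or a high rank (RpL3, RpS6, RpLP0, RpLP1 and RpL40), 2 that ranked highest (RpS28b and RpL37-1) and 5 without a peak in any library (RpL13A, RpS5b, RpS12, RpL10Ab and RpL37A). Each stretch runs 5′ to 3′ on the strand of the gene, from 80 bases before the TSS to the 20 bases that begin with it, and comes from the RefSeq genome of the same release. Capitals mark a TCT initiator (TCTTTT or TCTTTC or the same words with C as their first letter, on the sense strand and lying wholly within 10 bases to either side of the TSS), a DRE (TATCGATA), the Motif 1 core (GGTCACAC) or an E-box (CACGTG), the last 3 on either strand. Where a gene had several TSSs, the one with an initiator match was shown, or else the one at the 5′ end of the gene.
RpL3, chr3R:11221814-11221913 (plus strand): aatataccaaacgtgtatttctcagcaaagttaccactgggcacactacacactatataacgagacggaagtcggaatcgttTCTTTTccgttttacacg
RpS6, chrX:7901312-7901411 (minus strand): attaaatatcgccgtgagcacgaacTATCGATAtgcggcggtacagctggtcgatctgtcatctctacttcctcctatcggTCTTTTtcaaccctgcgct
RpLP0, chr3L:22076012-22076111 (plus strand): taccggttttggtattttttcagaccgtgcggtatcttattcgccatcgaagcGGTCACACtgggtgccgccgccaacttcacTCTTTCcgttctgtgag
RpLP1, chr2L:419872-419971 (plus strand): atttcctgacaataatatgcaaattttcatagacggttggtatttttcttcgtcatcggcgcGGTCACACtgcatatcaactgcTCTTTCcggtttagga
RpL40, chr2L:4227619-4227718 (plus strand): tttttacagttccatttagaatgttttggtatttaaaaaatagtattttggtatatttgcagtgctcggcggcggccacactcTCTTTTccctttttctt
RpL13A, chr3R:5624394-5624493 (plus strand): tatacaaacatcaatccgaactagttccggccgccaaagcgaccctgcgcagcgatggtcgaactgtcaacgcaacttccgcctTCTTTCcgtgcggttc
RpS5b, chr3R:14901544-14901643 (minus strand): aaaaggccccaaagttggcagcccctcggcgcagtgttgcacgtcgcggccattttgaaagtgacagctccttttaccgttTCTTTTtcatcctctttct
RpS28b, chrX:9554543-9554642 (plus strand): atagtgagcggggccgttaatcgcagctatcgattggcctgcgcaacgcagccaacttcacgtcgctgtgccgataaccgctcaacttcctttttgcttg
RpL37-1, chrX:15139348-15139447 (minus strand): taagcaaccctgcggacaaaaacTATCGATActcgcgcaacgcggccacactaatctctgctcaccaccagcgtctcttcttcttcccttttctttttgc
RpS12, chr3L:13023272-13023371 (plus strand): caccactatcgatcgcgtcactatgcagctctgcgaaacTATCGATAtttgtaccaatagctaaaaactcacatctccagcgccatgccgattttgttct
RpL10Ab, chr3L:11822771-11822870 (plus strand): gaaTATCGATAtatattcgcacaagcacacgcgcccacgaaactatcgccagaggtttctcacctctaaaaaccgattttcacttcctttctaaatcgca
RpL37A, chr2L:5070877-5070976 (plus strand): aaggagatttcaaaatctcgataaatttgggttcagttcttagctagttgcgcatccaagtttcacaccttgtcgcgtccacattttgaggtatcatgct

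The TCT initiator began at base 2 to 5 after the TSS in 7 of these 12 promoters, RpL13A and RpS5b among them, which had no peak anywhere. RpLP0 and RpLP1, whose products form the stalk of the large subunit, both carried the Motif 1 core upstream of the initiator, starting at base -27 and base -18. A DRE lay upstream of the TSS of RpS6 (base -55), RpL37-1 (base -57), RpS12 (base -41) and RpL10Ab (base -77). RpS28b and RpL37A had no match by these rules. The stretches of RpS28b, RpL37-1 and RpL10Ab each hold an initiator word that runs past the 10 bases searched, so their lack of a match turns on that limit. The presence of a match in these sequences therefore did not sort the genes with peaks from those without.

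Around any annotated TSS, 55 of the 92 genes (59.8%, 95% Wilson interval 49.6 to 69.2) held a TCT initiator, against 2.81% of all protein-coding genes, 2.74% of 73 mitochondrial ribosomal protein genes, 13.5% of 52 genes for translation factors (eIF and eEF) and 2.08% of 48 proteasome genes. When the whole window from 250 bases before to 50 bases after the TSS was searched, 91.3% of the ribosomal protein genes and 41.5% of all genes held 1 of these words, and at the 5′-end TSS alone 32.6% and 1.81% did. In the window of 250 bases before to 50 after the TSS, a DRE was found in 30.4% of the ribosomal protein genes and 10.2% of all genes, the Motif 1 core in 16.3% and 8.71%, and an E-box in 16.3% and 5.3%. The TATA box (TATAAA, sense strand) was found in 34.8% and 37%, and GAGAG, the core of the GAGA element, in 20.7% and 36.3% (either strand). TCT initiators therefore set the cytosolic set apart from the mitochondrial one by sequence, whereas the 3 other sets carried the DRE in 21.9% to 28.8% of their genes. No word of one motif contains a word of another, and a match is a description of letters only.

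**Figure D1:**
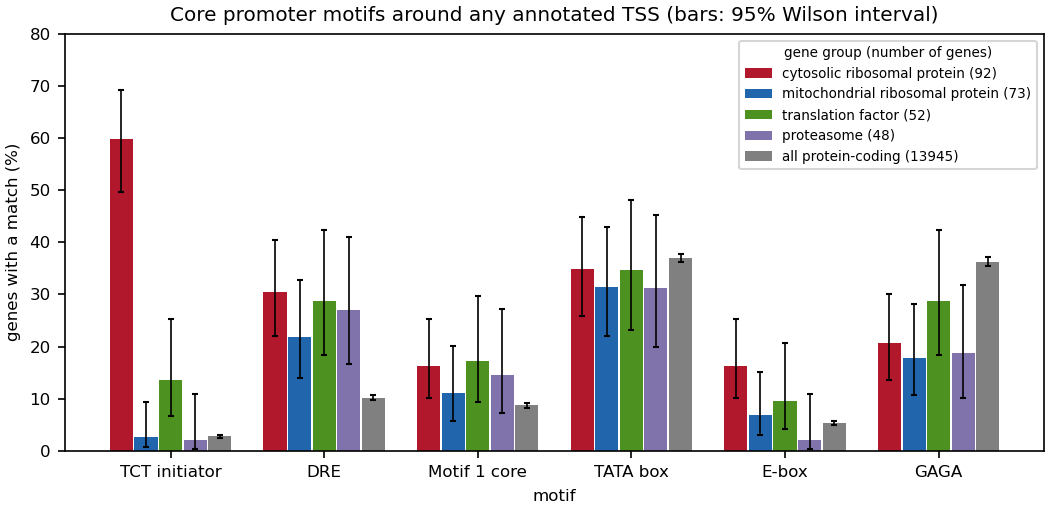
Share of genes with a motif match (percent, y axis) for 6 motifs (x axis) in 5 gene groups, with 95% Wilson intervals as error bars. The TCT initiator was found in 59.8% of the cytosolic ribosomal protein genes and in at most 13.5% of any other group, whereas the TATA box was found in 31.2% to 37% of every group.

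The deposited values are peaks called in each library by itself, so a promoter peak was counted for a gene when a peak overlapped the 500 bp to either side of any of its annotated TSSs, and the peak of highest fold enrichment was taken. Strength is given as the percentile of a peak by fold enrichment within its own list (100 for the strongest peak), because the fold enrichment depends on depth and is not comparable between libraries. On the chromosome arms the lists held 9311, 9048, 10048, 8466 and 3269 peaks. Read numbers were not known, but the fold enrichment and p-value of a peak allow the count of fragments at the summit to be solved for, whose median was 103, 65, 52, 52 and 8. The list of Ttk-depleted ECs was thus far shallower than the others, and an absent peak in it is a statement about detection and not about closed chromatin. The promoters of marker genes followed the labels only in part. The progenitor gene esg, the EE gene pros and the EC gene nub had a promoter peak in all 5 libraries. Percentiles of esg were 90.3, 99.6, 99.7, 99.7 and 73.1, and those of pros 81.6, 57.2, 87.2, 51.3 and 74.3. Those of nub were 98.9, 94.8, 97.5, 82.7 and 99.3. Among the normal cell types, esg and pros each ranked lowest in the type they mark, and nub ranked below its progenitor value in ECs. Tk and AstC, peptide hormones of EEs, had a promoter peak in none of the 5. Rab3, a vesicle protein of EEs, had one in EEs (59), Pros-depleted EEs (33.3) and progenitor cells (3.72) and none in either EC library. Myo31DF, an EC gene, had none in ECs but had one in EEs (87.3), progenitor cells (67.4), Pros-depleted EEs (39.6) and Ttk-depleted ECs (6.96), and mex1, also of ECs, was at 58.4 in ECs, 45.4 in EEs and 32 in progenitor cells. Since each population has 1 library, populations could not be tested against each other. Intervals of shares are 95% Wilson intervals, which cover counting error over genes only.

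Most ribosomal protein genes had a promoter peak in each of the 4 deeper libraries. In progenitor cells 78 of 92 had one (84.8%, 76.1 to 90.7), against 47.7% of all protein-coding genes. The count was 70 in EEs (76.1%, 66.4 to 83.6), against 45.6% of all genes, and 65 in Pros-depleted EEs (70.7%, 60.7 to 79), against 43%. In ECs it was 57 (62%, 51.7 to 71.2), against 39.9%. In Ttk-depleted ECs it was 14 (15.2%, 9.29 to 23.9), against 11.3%, and there the interval included the share of all genes. With the full lists, the intervals in the 4 deeper libraries lay wholly above it. These counts depend on how many peaks a list holds. With only the strongest 3269 peaks of each list, 35 of the 92 genes had a promoter peak in progenitor cells. In EEs it was 25, in ECs 17 and in Pros-depleted EEs 26. Of all genes 20.4%, 20.3%, 17% and 20.3% had one, and the EC count was close to that share. No intervals were computed at this length, so the statement on intervals holds for the full lists only.

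The order of the 4 deeper libraries was the same for mitochondrial ribosomal protein and translation factor genes. Mitochondrial ribosomal protein genes had promoter peaks in 83.6% in progenitor cells, 69.9% in EEs, 58.9% in ECs and 61.6% in Pros-depleted EEs, and translation factor genes in 75%, 69.2%, 57.7% and 67.3%. The intervals of both groups overlapped those of the cytosolic set in all 4 libraries. Proteasome genes had fewer and another order, with 54.2% in EEs, 50% in progenitor cells, 39.6% in Pros-depleted EEs and 33.3% in ECs, and none of the 48 had a peak in Ttk-depleted ECs (interval up to 7.41%). This group, taken by symbol, also holds genes whose symbols add R or T to a subunit name, such as Prosalpha3T and Rpt4R. Of these added genes only Rpt3R had a progenitor peak. The share of the group without them was not computed. A high share of promoters with a peak was therefore not particular to the cytosolic ribosome.

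**Figure D2:**
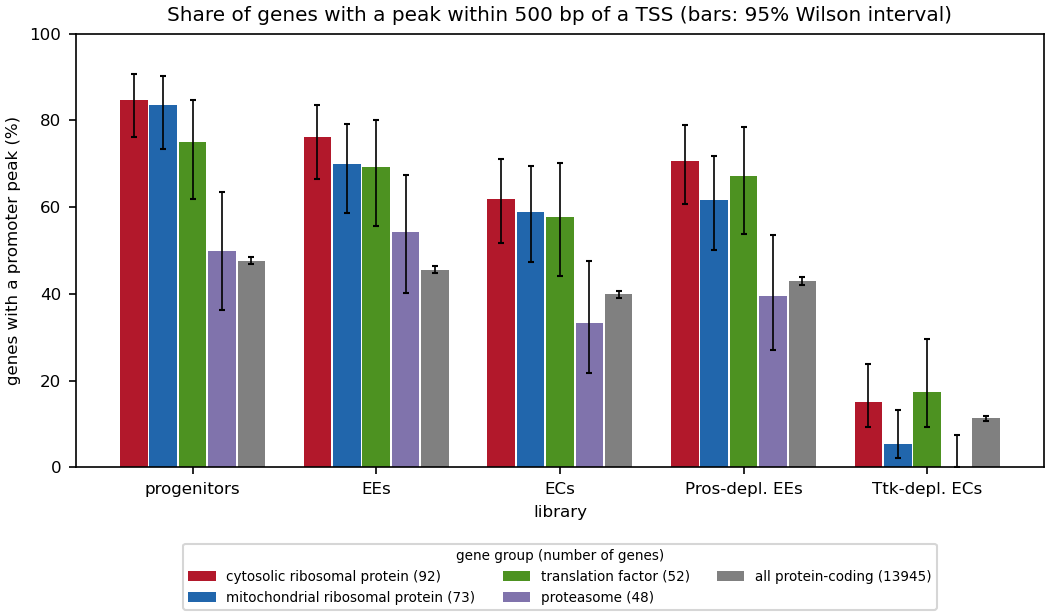
Share of genes with a peak within 500 bp of a TSS (percent, y axis) in each library (x axis) for 5 gene groups, with 95% Wilson intervals as error bars. Cytosolic ribosomal protein genes went from 84.8% in progenitor cells to 62% in ECs and 15.2% in Ttk-depleted ECs, and all protein-coding genes from 47.7% to 39.9% and 11.3%.

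Counting only peaks that covered a TSS of the gene itself gave 75%, 68.5%, 48.9%, 59.8% and 5.43% of the ribosomal protein genes, against 42%, 38.4%, 29.2%, 35.8% and 4.8% of all genes. The summits lay close to the start sites. The median distance from the nearest TSS was 60, 75, 111, 71 and 51.5 bp, against 97, 141, 183, 138 and 103 bp over all genes with a promoter peak. Of the 78 summits in progenitor cells, 71 lay upstream of the TSS (91%, all genes 70.5%). The peaks were of median width 682 bp in progenitor cells and 500 bp in ECs, beside 707 and 611 bp for all promoter peaks.

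The promoter peaks of ribosomal protein genes were of middle strength. Their median percentile was 58.6 in progenitor cells (order-statistic 95% interval 49.6 to 73.4) and 54, 56.9, 52.4 and 54.4 in the others, beside 58.8, 59.1, 61.9, 58.9 and 58.3 for all genes with a promoter peak. Above percentile 90 stood 4 of 78 in progenitor cells (5.13%, all genes 10.7%), 2 of 70 in EEs (2.86%, all genes 12%), 2 of 57 in ECs (3.51%, all genes 11.7%) and 4 of 65 in Pros-depleted EEs (6.15%, all genes 12.1%). In Ttk-depleted ECs it was 2 of 14 (14.3%, all genes 12.8%). The number of fragments at the summit in progenitor cells ranged from 34 to 344 over the 78 genes, with a median of 118.

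**Figure D3:**
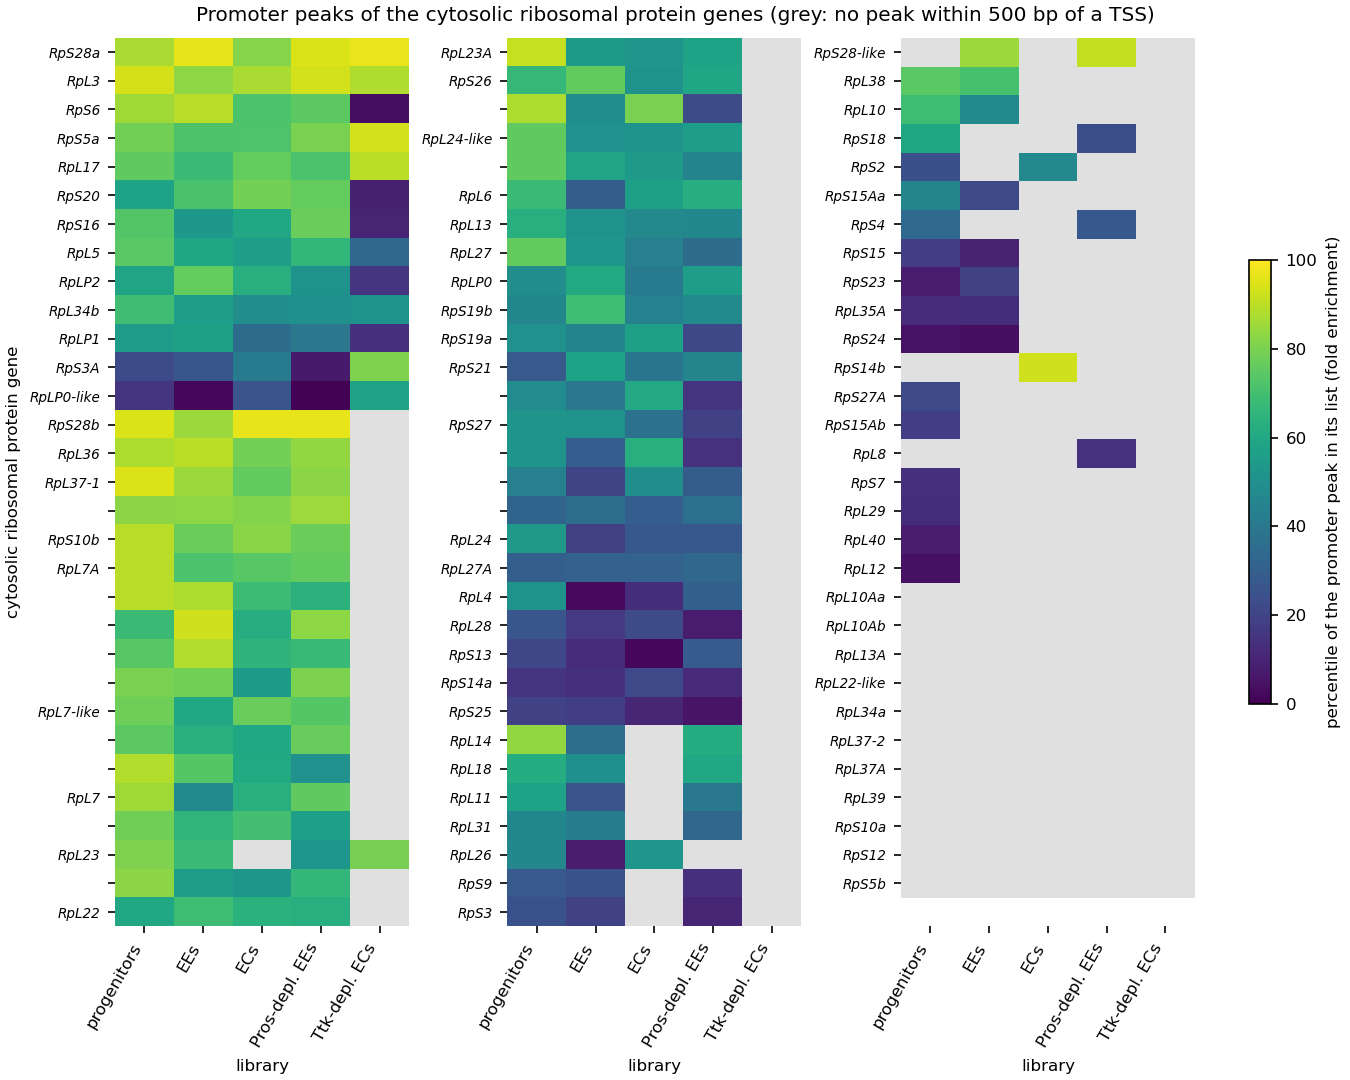
Percentile of the promoter peak within its list (colour, 0 to 100) for each of the 92 genes (y axis, ordered by the number of libraries with a peak and then by mean percentile) in the 5 libraries (x axis), with grey for no peak within 500 bp of a TSS. The 13 genes with a peak in all 5 libraries stand at the top left, and the 11 with none at the bottom right. Names are printed for the genes described in the text.

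A peak in every deep library was the most frequent pattern. In progenitor cells, EEs and ECs alike 55 genes had a promoter peak (59.8%, 49.6 to 69.2), against 33.8% of all genes, and 54 of these had one in Pros-depleted EEs as well (58.7%), against 32.7%. All 5 libraries had a peak at 13 genes (14.1%, 8.45 to 22.7), against 9.64%. That last count fell to 5 with lists of equal length (all genes 5.67%), to 4 with a -log10 q of at least 5 (4.06%) and to 0 with at least 10 (0.502%). With lists of equal length, 13 genes had a peak in the 3 normal cell types (14.1%, all genes 11.5%). No library had one at 11 genes (12%, 6.81 to 20.2), against 43.8%. In 1 or more of the 3 normal cell types 80 genes had a peak, of which 55 had it in all 3, 14 in progenitor cells and EEs, 8 in progenitor cells only, and RpS2 in progenitor cells and ECs. The remaining 2 were RpS28-like, in EEs only, and RpS14b, in ECs only. Peaks in all 3 made up 68.8% of these 80 genes and 61.2% of all genes with a peak in a normal cell type, peaks in progenitor cells and EEs 17.5% and 12.7%, and peaks in progenitor cells only 10% and 7.74%. The other patterns were RpS2, RpS28-like and RpS14b, 1.25% each, against 4.84%, 7.45% and 4.92%.

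At the strong end stood RpS28b and RpL3. RpS28b, a small-subunit protein on the X, was at percentile 94.2 in progenitor cells, 85 in EEs, 96.1 in ECs and 96.2 in Pros-depleted EEs, and had no peak in Ttk-depleted ECs, where the nearest lay 866 bp away. Its summit in the 4 libraries lay at position -861 or -952 bp from the RpS28b TSS. In all of them the peak covered the TSS of l(1)G0320, 873 bp away. The peak reached the RpS28b TSS in progenitor cells, EEs and ECs. In Pros-depleted EEs this strongest peak ended short of the RpS28b TSS, which another, weaker peak covered. The ranks of RpS28b thus describe a locus shared with l(1)G0320. RpL3, which lies at the peptidyl transferase centre, was at 93.4, 82.9, 87.4, 93 and 87.9. Its summit held 335, 136, 142, 130 and 11 fragments, which shows how little signal the last library offers even at a strong peak. In the 4 deeper libraries the RpL3 peak also covered the TSS of CG6693, 255 bp away. RpL3 was among the 3 highest in progenitor cells, ECs and Pros-depleted EEs. RpL37-1 was highest in progenitor cells (94.6) and stood at 84.9, 75.9 and 82.5 in EEs, ECs and Pros-depleted EEs. RpL36 (87.8, 89.5, 79.1 and 83.6) was high in the same 4 libraries and had no peak in Ttk-depleted ECs. In each of the 4 the RpL36 peak also covered the TSS of Mybbp1A.

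RpS28a gave the highest rank in EEs (96.1) and in Ttk-depleted ECs (97.2), with 87.2 in progenitor cells, 81.7 in ECs and 94.4 in Pros-depleted EEs. In the 4 deeper libraries its peak was 988 to 1475 bp wide, had its summit 632 or 633 bp downstream of the RpS28a TSS, and covered the TSSs of Axn, the scaffold of the Wnt pathway's destruction complex, and Mgat2 as well. In Ttk-depleted ECs its peak was 90 bp wide, lay 364 bp from the RpS28a TSS and covered the TSS of Mgat2 alone. The ranks of RpS28a therefore describe a locus of 3 genes.

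The weakest peaks differed between libraries. In progenitor cells they were those of RpL12 (4.47), RpS24 (4.81) and RpS23 (7.52), the last a protein of the decoding centre. In EEs they were RpLP0-like (2.02), RpL4 (2.55) and RpS24 (3.86), in ECs RpS13 (2.01), RpS25 (10.8) and RpL4 (12.9), and in Pros-depleted EEs RpLP0-like (0.697), RpS25 (5.35) and RpS3A (7.13). RpL4, which lines the exit tunnel of the nascent chain, was at 50.9 in progenitor cells and 31.2 in Pros-depleted EEs, so it was not weak throughout. RpS25 was low in all of the 4 (19.8, 18.6, 10.8 and 5.35).

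Genes with special roles were spread over the range. RpS6, the substrate of S6 kinase downstream of TOR, was at 85.8, 89.3, 71.7, 74.7 and 3.58. The value in Ttk-depleted ECs was the lowest of the 14 in that library and came from 4 fragments at the summit. Of the stalk proteins, RpLP0 was at 49.6, 60.9, 40.9 and 56.1 in the 4 deeper libraries with no peak in Ttk-depleted ECs. RpLP1 was at 55.1, 57, 35.4, 39.7 and 13.3 and RpLP2 at 58.3, 76.4, 62.9, 51.4 and 15 over all 5. The stalk genes thus had a peak in every deep library, between percentiles 35.4 and 76.4.

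The ubiquitin fusions behaved otherwise. RpL40 and RpS27A are both made as fusions with ubiquitin, which is cut off to leave the ribosomal protein. RpL40 had a peak in progenitor cells only (percentile 7.61, 37 fragments), and elsewhere the nearest peak was 663 bp (Pros-depleted EEs), 738 bp (EEs), 2680 bp (ECs) and 105575 bp (Ttk-depleted ECs) from its TSS. RpS27A likewise had a peak in progenitor cells only (percentile 22, 41 fragments), with the nearest 2484 bp or more away elsewhere. Both were below the middle of the progenitor list, where other genes also tended to lack a peak in ECs, as the comparison by rank shows.

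Without a promoter peak in any library were 11 genes: RpL10Aa, RpL10Ab, RpL13A, RpL22-like, RpL34a, RpL37-2, RpL37A, RpL39, RpS10a, RpS12 and RpS5b. RpL22-like, RpS10a and RpS5b are paralogues known for their use in the germline, and the other gene of each stem (RpL22, RpS10b and RpS5a) had a peak in all 4 deeper libraries. RpL34a and RpL37-2 likewise stood beside RpL34b and RpL37-1, which had peaks in all 4. RpL13A, RpL37A, RpL39 and RpS12 have no other gene of their stem, and they encode general ribosomal proteins, RpS12 being the one needed in flies for the competitive elimination of Minute cells and RpL39 lying in the exit tunnel. RpL10A forms the mobile stalk opposite the acidic one, and neither of its genes had a peak within 500 bp. For RpL10Ab the nearest peak lay 764 bp (Pros-depleted EEs) to 2882 bp (Ttk-depleted ECs) away.

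Some genes lay close to the limit of 500 bp. Just outside it, RpS12 had a peak 583 bp from its TSS in progenitor cells and 589 to 625 bp in the other libraries, and RpL39 had one at 622 to 675 bp in progenitor cells, EEs and Pros-depleted EEs, while RpL26 had one at 530 bp in the last. Just inside it were RpL12 (470 bp) and RpL26 (488 bp) in progenitor cells, RpS14b (487 bp) in ECs and RpS28-like (468 bp) in EEs. RpL13A had no peak nearer than 2048 bp and RpL37A none nearer than 2914 bp. RpL8 had its only promoter peak in Pros-depleted EEs (percentile 14.6, 63 fragments), covering the TSS, while the nearest peaks of the other deep libraries lay 787 to 818 bp away.

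Genes with a paralogue of the same stem had promoter peaks in 66.7% in progenitor cells (18 of 27, interval 47.8 to 81.4). Those without one had them in 92.3% (60 of 65, 83.2 to 96.7), and the intervals did not overlap. Counting only peaks over the gene's own TSS gave 59.3% (40.7 to 75.5) and 81.5% (70.4 to 89.1) there, with overlapping intervals. In ECs the shares were 63% and 61.5%. By subunit the shares were alike, with 83.3% of the large-subunit and 86.8% of the small-subunit genes in progenitor cells and 63% and 60.5% in ECs. In several pairs the peak belonged to a locus shared with a neighbour. RpS14a (15.5, 13.8, 21.9 and 11.9 in the 4 deeper libraries) had a peak that never reached its own TSS and covered that of Dhdds. RpS14b had a peak in ECs only, at percentile 92.6 with 231 fragments, but its summit lay 960 bp downstream of the RpS14b TSS, it began 487 bp away and it covered the TSS of Ubr3. In the other libraries the nearest peak lay 623 to 975 bp away, so the call turned on the window. Parts of the windows of RpS14a, RpS14b and RpS15Ab are repeated elsewhere in the genome (86.7%, 83.6% and 86.4% of their 64-base words were found once), and the authors had removed reads that map to several places.

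RpS28-like showed the same kind of overlap, with peaks in EEs (85) and Pros-depleted EEs (90.8) whose summits lay 605 and 611 bp downstream and which covered the TSS of numb, the Notch inhibitor, and not that of RpS28-like. RpS19b, another paralogue known from the germline, was at 45.9, 69.1, 44.1 and 47.4, but from peaks that began 158 to 342 bp away and covered the TSS of CG5854 alone. RpS19a was at 50.4, 45.2, 56.9 and 21.6. RpS15Aa had a peak in progenitor cells (45.4) and EEs (22), and RpS15Ab in progenitor cells only (18.6).

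The genes named -like for which yeast has a counterpart in ribosome assembly differed among themselves. RpL24-like (75.5, 50.4, 51.5 and 56) ranked above RpL24 (53.7, 18.8, 27.6 and 27.5) in each of the 4 deeper libraries. In each of them the RpL24-like peak also covered the TSS of CG5276, whereas the RpL24 peak covered no other gene's TSS. RpL7-like (77.9, 59.5, 77.3 and 73.7) and RpL7 (85.7, 47.5, 62.8 and 75.7) had no fixed order. Their peaks were shared too, that of RpL7-like with CG34164 and JhI-21 and that of RpL7 with Ripalpha. RpLP0-like (15.5, 2.02, 26.3, 0.697 and 57.6 over the 5 libraries) was below RpLP0 in the 4 deeper ones, and it shared its peak there with 14-3-3zeta, a regulatory adaptor protein. The set held 5 genes named -like in all.

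The nearest TSS of another protein-coding gene lay within 500 bp for 37 of the 92 genes (40.2%, all genes 30.9%), 35 of these on the opposite strand. The promoter peak covered the TSS of another gene in 53.8%, 47.1%, 50.9% and 50.8% of the members with a peak in the 4 deeper libraries, against 47.7%, 43.6%, 37.1% and 43.5% of all genes with one. It did so for 1 of 14 (7.14%, all genes 11.1%) in Ttk-depleted ECs, where the median promoter peak of the set was 85 bp wide. RpL13 starts 84 bp from Dref, which encodes the DRE-binding factor, and its peak (63.2, 50.9, 46.9 and 46.8 in the 4 deeper libraries) covered the Dref TSS in each. RpL28, 381 bp from eIF1, an initiation factor, had a peak that covered the eIF1 TSS and not its own (26.9, 16.6, 22.9 and 7.81). Genes with such a neighbour had a peak in 94.6% in progenitor cells and 75.7% in ECs, and those without in 78.2% and 52.7%, with overlapping intervals. In Pros-depleted EEs the shares were 86.5% (72 to 94.1) and 60% (46.8 to 71.9), whose intervals did not overlap. How much of the accessibility belongs to either gene cannot be told apart in peak lists.

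In ECs, 22 of the 78 genes with a progenitor peak had none (28.2%, 19.4 to 39), against 23.6% of all genes with a progenitor peak. They were RpL10, RpL11, RpL12, RpL14, RpL18, RpL23, RpL29, RpL31, RpL35A, RpL38, RpL40, RpS15, RpS15Aa, RpS15Ab, RpS18, RpS23, RpS24, RpS27A, RpS3, RpS4, RpS7 and RpS9. In progenitor cells these 22 had a median percentile of 26.5 and a median of 75.5 fragments at the summit, and the 56 with an EC peak had 68.8 and 135. In the opposite direction only RpS14b had an EC peak and no progenitor peak (1.75% of 57, against 8.51% of all genes). The genes without an EC peak were thus mostly weak in the progenitor list. The median of the summit fragments also differed between these lists, 103 against 52, and its part in the difference was not tested.

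There were exceptions at high rank. RpL14, a Minute gene, was at percentile 83.7 in progenitor cells with 137 fragments, 61.8 in Pros-depleted EEs and 36.2 in EEs, and its nearest EC peak lay 2071 bp away. Wherever RpL14 had a peak, that peak also covered the TSS of Nelf-E. RpL23 was at 80.6 in progenitor cells, 68.3 in EEs, 79.5 in Ttk-depleted ECs and 52.4 in Pros-depleted EEs, and its nearest EC peak lay 12709 bp away, which made it the only 1 of the set found in Ttk-depleted ECs and not in ECs (7.14% of 14, against 9.47% of all genes). RpL38, which in mice is known for selective effects on Hox mRNA translation, was at 74.5 in progenitor cells and 70.9 in EEs and had no peak in the other 3 libraries. RpL10, a protein added late in subunit assembly, was at 69.1 and 47.5 in progenitor cells and EEs and likewise had none in the other 3.

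When the progenitor list was divided into 10 equal classes by fold enrichment, class 10 being the strongest, other protein-coding genes had an EC peak in 22.7% in class 1 and 99.3% in class 10. Applying these shares to the ranks of the 78 ribosomal protein genes gives 59.1 genes with an EC peak, beside the 56 counted. For EEs the same calculation gives 66.1, beside 69 counted. In class 9, 11 of 13 had an EC peak beside 97.6% of other genes, the missing ones being RpL14 and RpL23.

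**Figure D4:**
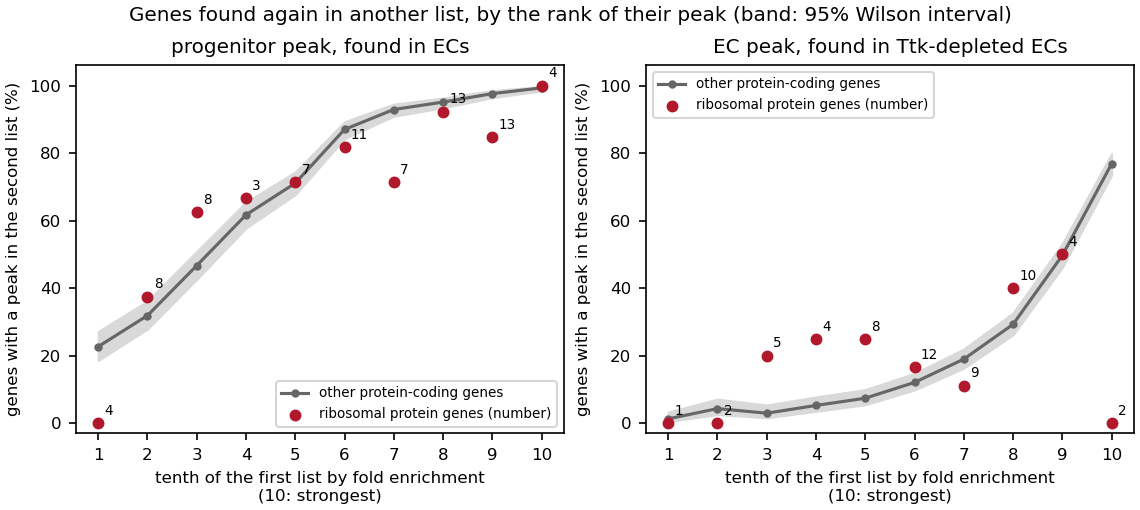
Share of genes with a peak in another list (percent, y axis) by class of the first list by fold enrichment (x axis, class 10 the strongest), for other protein-coding genes (grey line, band of the 95% Wilson interval) and for ribosomal protein genes (red points, with the number of genes). The share found in ECs went from 22.7% to 99.3% across the progenitor list, and the share found in Ttk-depleted ECs from 1.32% to 76.8% across the EC list.

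Of the progenitor promoters, 9 of 78 had no EE peak (11.5%, 6.19 to 20.5), against 14.6% of all genes: RpL12, RpL29, RpL40, RpS15Ab, RpS18, RpS2, RpS27A, RpS4 and RpS7. Their median percentile in progenitor cells was 18.6, and the highest was RpS18 at 59. In the opposite direction RpS28-like was the only 1 of 70 (1.43%, against 10.5%). Of the 70 genes with an EE peak, 15 had no EC peak (21.4%, 13.4 to 32.4), against 24.4% of all genes, and of the 57 with an EC peak RpS14b and RpS2 had no EE peak (3.51%, 0.968 to 11.9), against 13.5%. RpS2, which lies at the entry of the mRNA channel, was at 24.6 in progenitor cells and 46.9 in ECs, where the peak lay 381 bp from its TSS. Peaks of EEs or ECs without a progenitor peak were thus limited to RpS28-like and RpS14b in these lists, and both rested on a peak over the TSS of a neighbour.

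Among genes with a peak in both libraries compared, ranks were similar. Pearson's r of the percentiles over the ribosomal protein genes was 0.786 between progenitor cells and EEs (69 genes), 0.796 between progenitor cells and ECs (56) and 0.764 between EEs and ECs (55), beside 0.68, 0.759 and 0.618 over all genes. These are descriptions across genes, which are not independent replicates, and all 3 share the same reference and annotation.

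Between EEs and progenitor cells, 3 of 69 genes ranked at least 20 points higher in EEs (4.35%, against 11.1% of all genes with both peaks) and 16 ranked at least 20 points lower (23.2%, against 15.6%), with a median difference of -8.45 points (order-statistic interval -12.3 to -2.93) against -2.31 over all genes. RpS21 (27.9 in progenitor cells and 58.1 in EEs) and RpS19b (45.9 and 69.1) were among the 3 higher in EEs. RpL4 (50.9 and 2.55), RpL14 (83.7 and 36.2) and RpL6 (68.3 and 29.3) were the furthest in the opposite direction. These shifts concern the place of a gene within each list and not an amount of signal.

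Between ECs and progenitor cells, 2 of 56 genes ranked at least 20 points higher in ECs (3.57%, against 8.08%) and 11 lower (19.6%, against 13.5%), with a median difference of -8.43 points (-14.2 to -3.98) against -1.8 over all genes. The count of lower genes turned on the measure of rank, with 3 by -log10 p (5.82% of all genes) and 21 by rank within promoter peaks (21%). RpS2 (24.6 in progenitor cells and 46.9 in ECs) and RpS20 (58 and 79) were the higher ones, followed by RpS3A (22.3 and 40.8). The values of RpS2 came from different peaks. Its progenitor peak covered the TSS, whereas its EC peak did not and had its summit 707 bp downstream. RpL23A (91.1 and 52.1), which sits at the mouth of the exit tunnel, RpL4 (50.9 and 12.9) and RpL27 (75.8 and 43.6) were the furthest lower. In both comparisons with progenitor cells the Wilson intervals of the lower share, 14.8 to 34.4 for EEs and 11.3 to 31.8 for ECs, included the share of all genes. Both comparisons share the progenitor list.

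Between EEs and ECs, of 55 genes 7 ranked at least 20 points higher in EEs (12.7%, against 14.8%) and 7 lower (12.7%, against 16.2%), with a median difference of 2.58 points. By ranks of -log10 p, 2 were higher in EEs (10.5% of all genes) and 7 lower (12.7%). RpS26 (75.9 in EEs and 50.9 in ECs) and RpS19b (69.1 and 44.1) were among those higher in EEs. RpL26 (8.05 and 52.2) was the furthest lower. Its EC peak did not reach its own TSS, starting 488 bp away, and covered the TSS of a neighbour, whereas its EE peak covered its own.

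**Figure D5:**
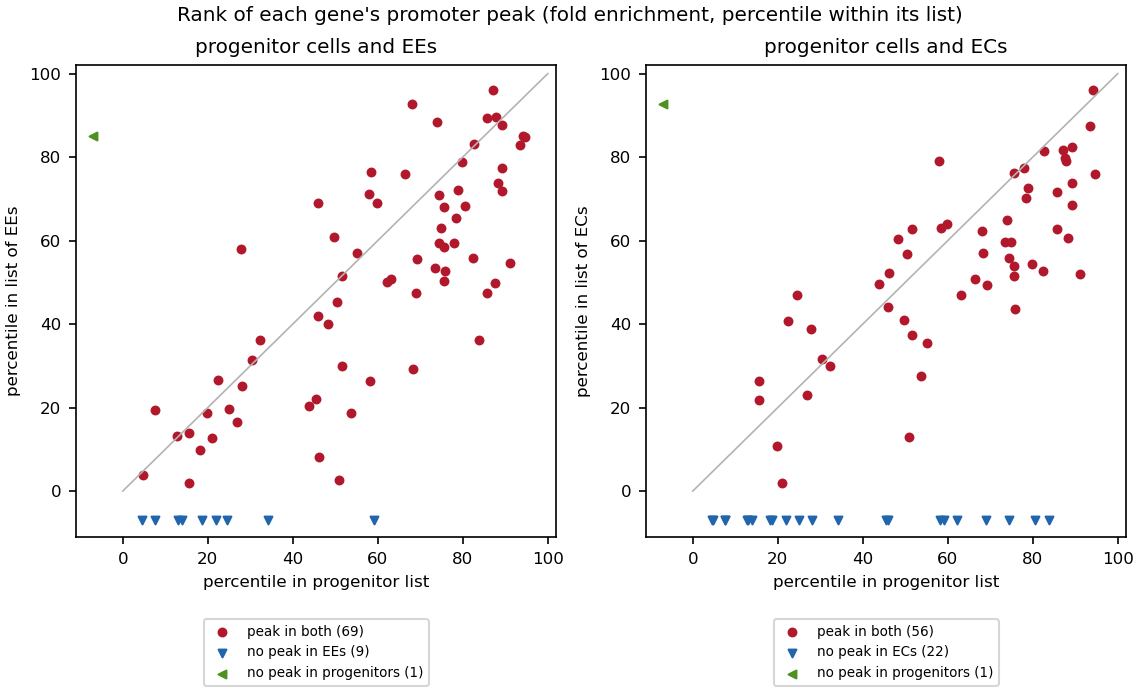
Percentile of each ribosomal protein gene's promoter peak in progenitor cells (x axis) against EEs (left, y axis) and ECs (right, y axis), with the line of equal rank. Triangles below the axis are the 9 genes without an EE peak and the 22 without an EC peak, which lie mostly at low progenitor ranks, and the 1 triangle at the left of each panel is RpS28-like or RpS14b, with no progenitor peak.

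After the depletion of Pros, a homeodomain transcription factor of EEs, most promoter peaks of the set were found again. Of the 70 genes with an EE peak, 62 had one in Pros-depleted EEs and 8 had none (11.4%, 5.91 to 21), against 12.2% of all genes with an EE peak. The 8 were RpL10, RpL26, RpL35A, RpL38, RpS15, RpS15Aa, RpS23 and RpS24. Among them RpL38 was at percentile 70.9 in EEs and the others between 3.86 and 47.5. All 8 also had a peak in progenitor cells, so they were found in both normal libraries and not after depletion. In the opposite direction RpL8, RpS18 and RpS4 had no peak in EEs but had one in Pros-depleted EEs (4.62% of 65, 1.58 to 12.7, against 6.83%). RpS18 was at 59 in progenitor cells and 23.9 in Pros-depleted EEs, and RpS4 at 34.1 and 27.7, so both were found in the progenitor library and in the Pros-depleted library but not in EEs. RpL8, which lies near the peptidyl transferase centre, was not found in progenitor cells.

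Of the 62 genes with a peak in EEs and in Pros-depleted EEs, 5 ranked at least 20 points higher after depletion (8.06%, against 8.04%) and 9 lower (14.5%, against 11.7%). The median difference was -2.11 points, and Pearson's r was 0.826, beside 0.796 over 5582 genes. RpL6 (29.3 in EEs and 62.3 in Pros-depleted EEs), RpL4 (2.55 and 31.2) and RpL7 (47.5 and 75.7) were the furthest higher. RpS27 (51.5 and 19.3) was the furthest lower, and RpLP2 (76.4 and 51.4) was also among the lowest 3. At RpL6, RpL4 and RpL7 the value after depletion lay between those of EEs and progenitor cells (68.3, 50.9 and 85.7). These genes were chosen for the size of their difference, and no test was possible with 1 library each.

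In Ttk-depleted ECs, 14 ribosomal protein genes had a promoter peak: RpL17, RpL23, RpL3, RpL34b, RpL5, RpLP0-like, RpLP1, RpLP2, RpS16, RpS20, RpS28a, RpS3A, RpS5a and RpS6. All of these except RpL23 had a peak in each of the other 4 libraries. The summits held 4 to 13 fragments, and 5 of the 92 genes had a peak over their own TSS. Of the 57 genes with an EC peak, 44 had none in Ttk-depleted ECs (77.2%, 64.8 to 86.2), against 74.4% of all genes with an EC peak. The interval included the share of all genes.

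Across all other genes the share found in Ttk-depleted ECs went with the rank in ECs, from 1.32% in class 1 of the EC list to 76.8% in class 10. At the EC ranks of the 57 ribosomal protein genes these shares give 10.7 genes, beside the 13 counted (22.8%, 13.8 to 35.2). The 13 had a median EC percentile of 62.9 and 64 fragments, and the 44 without a peak had 54.2 and 59. The 2 genes of the set in class 10 of ECs, RpS28b and RpS14b, both lacked a promoter peak in Ttk-depleted ECs, but the summits of their EC peaks lay at positions -952 and 960 bp from their TSSs and the peaks covered the TSSs of l(1)G0320 and Ubr3. The interval of the 13 included the 18.7% that the shares of other genes give, and 78 of the 92 genes had no value in the shallow list.

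Ranks in Ttk-depleted ECs had little relation to those in ECs. Over the 13 genes with both peaks Pearson's r was 0.231, beside 0.343 over 1424 genes. At least 20 points higher were 3 of 13 (23.1%, against 3.79% of all genes, and 1 against 3.23% by ranks of -log10 p) and at least 20 points lower 6 (46.2%, against 49.3%). The 3 were RpS3A (40.8 in ECs and 80.7 in Ttk-depleted ECs), the only gene of the set on chromosome 4, RpLP0-like (26.3 and 57.6) and RpS5a (72.5 and 93.2), and the furthest lower were RpS20 (79 and 8.81), RpS6 (71.7 and 3.58) and RpS16 (59.7 and 10.4). The summits of RpS3A, RpLP0-like and RpS5a held 9, 10 and 11 fragments and those of RpS20, RpS6 and RpS16 held 6, 4 and 5. With so few fragments and 1 library, the error of these ranks was not measured.

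Other genes near the top of the shallow list were RpL17 (75.5, 68.1, 76.2, 71.5 and 89.7), a protein of the exit tunnel, and RpS5a (78.9, 72, 72.5, 79.8 and 93.2), which lies near the exit of the mRNA channel. Their ranges over the 3 normal cell types were 8.06 and 6.96 points. RpL5 (74.4, 59.3, 55.9, 66.3 and 33.3) and RpL34b (69.2, 55.6, 49.4, 50 and 51.1) stood lower. Of the 55 genes with a peak in all 3, RpL27A (30.4, 31.3, 31.6 and 33.1) varied least, with a range of 1.19 points.

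The 92 genes lie on 2L (19), 2R (21), 3L (14), 3R (23), 4 (1) and X (14). Of the 14 on the X, 13 had a promoter peak in each normal cell type (92.9%, 68.5 to 98.7), and 12 in Pros-depleted EEs. On the autosomes the shares in these 4 libraries were 83.3% (73.5 to 90), 73.1% (62.3 to 81.7), 56.4% (45.4 to 66.9) and 67.9% (57 to 77.3). The interval of the X lay above that of the autosomes in ECs only. The 13 genes on the X in ECs include RpS14b, whose peak there covered the TSS of Ubr3 and not its own. A count of 12 of 14, as in Pros-depleted EEs, has an interval of 60.1 to 96, which overlaps that of the autosomes in ECs. Over all genes the shares in the 3 normal cell types were 52%, 49.8% and 45% on the X and 46.9%, 44.8% and 38.9% on the autosomes. Median percentiles were 78.9 on the X and 55.1 on the autosomes in progenitor cells, 71.8 and 50.9 in EEs, and 73.9 and 52.1 in ECs. The medians over all genes were also higher on the X, with 66.4 against 57, 65.2 against 58.2 and 69.6 against 60.5. RpS28b, RpL37-1, RpL36, RpL7A, RpS10b and RpS6 are among the X-linked genes that stood high.

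Promoters of the set with a TCT initiator were compared with those without. Of the 55 genes with the initiator, 49 had a peak in progenitor cells (89.1%, 78.2 to 94.9) and 37 in ECs (67.3%, 54.1 to 78.2), and of the 37 without it 29 (78.4%, 62.8 to 88.6) and 20 (54.1%, 38.4 to 69). The intervals overlapped in both libraries. Over all other protein-coding genes the shares with a TCT match were 58.2% in progenitor cells and 52.5% in ECs, beside 47.2% and 39.4% without. The median percentiles were 51.6 with and 68 without the initiator in progenitor cells, 50.4 and 68.7 in EEs, 52.1 and 63.5 in ECs, and 42.4 and 71.5 in Pros-depleted EEs. Among the 54 genes with a peak in all 4 deeper libraries 36 held a TCT initiator (66.7%), and among the 11 with no peak anywhere 4 did (36.4%): RpL13A, RpL37-2, RpL39 and RpS5b.

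The E-box was present in 15 genes, of which 15 (79.6 to 100), 14, 13 (86.7%, 62.1 to 96.3) and 14 had a peak in the 4 deeper libraries. Of the 77 genes without it, 81.8%, 72.7%, 57.1% and 66.2% did, with overlapping intervals. Over all other protein-coding genes the shares with an E-box were 58.3% in progenitor cells and 50.6% in ECs, beside 46.9% and 39.1% without. A DRE made little difference within the set, with a progenitor peak in 85.7% of 28 genes with one and 84.4% of 64 without, whereas over all other genes the shares were 76.7% and 44.2%. In progenitor cells the intervals with and without the motif overlapped for each of the 6 motifs searched. Whether any factor binds these promoters was not measured.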

How the data were processed

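Peak lists of 1 library for each of 5 populations were used. As the labels and methods state, the authors trimmed reads with Cutadapt, mapped them to BDGP6 with bowtie2 (the sources differ on its version), took out duplicates, blacklisted regions and reads mapping to several places, and ran MACS3 on each library by itself. The settings of MACS3 were not given in the sources used here. The fold enrichment (a ratio to the local background), the -log10 p and the -log10 q of each peak were computed and deposited by the authors, and every q-value was at most 0.05. Reads and RNA levels were not used here.

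Peaks on 6 chromosome arms were kept, and 25 to 108 per library elsewhere were left out. Genes and TSSs came from Ensembl release 115 (BDGP6), and sequences from RefSeq for the same assembly. Promoter peaks were assigned within 500 bp of any TSS and ranked by fold enrichment. Summit fragments were solved for from the fold enrichment and p-value under the Poisson model of MACS (pseudocount 1), which succeeded for 100% of the peaks. Gene groups were taken by symbol: mRpL and mRpS, eIF and eEF, and Prosalpha, Prosbeta, Rpn and Rpt. Scripts used SciPy 1.17.1, pandas 2.3.3, matplotlib 3.10.9 and numpy 2.4.6 under Python 3.11.15, and were checked on simulated data.

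The genes to be named were those without a peak in at least 1 of the 4 deeper libraries, the 3 highest and 3 lowest in each library, the 3 furthest in each direction in each comparison, genes that share a stem, and RpLP0, RpLP1, RpLP2, RpL40, RpS27A and RpS6. Others named were chosen after their values were seen, and a few genes that this rule takes are not reported here. The members and lists were chosen with earlier results of these data known. Alternatives were a narrower and a wider window, the summit in place of the interval, the 5′-end TSS, -log10 q minimums of 5 and 10, lists cut to 3269 peaks, ranks of -log10 p, the nearest peak, genes without a peak at rank 0, ranks within promoter peaks and a step of 10 points. Peaks over a TSS, the set without -like genes and motifs at the 5′-end TSS were added after the data were seen.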

Additional observations from a re-analysis of the deposited data

How the results depend on the processing

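Of 144 alternative values for 35 results, 107 stayed within 1.5 times the count, or within the interval of the median, given in the report. Percentages in parentheses are the shares over all genes. With the strongest 3269 peaks of each list, promoter peaks were counted at 35 genes in progenitor cells, 25 in EEs, 17 in ECs and 26 in Pros-depleted EEs (all genes 20.4%, 20.3%, 17% and 20.3%), at 13 in the 3 normal cell types, 12 in 4 libraries and 5 in all 5 (11.5%, 10.8% and 5.67%). With a -log10 q of at least 10 there were 32 in ECs, 29 in the 3 normal cell types, 28 in 4 libraries and 0 in Ttk-depleted ECs and in all 5 libraries (23.7%, 21.7%, 20.9%, 0.523% and 0.502%), and with at least 5 there were 6 in Ttk-depleted ECs and 4 in all 5 (4.52% and 4.06%). Peaks over a TSS gave 5 genes in Ttk-depleted ECs (4.8%). With genes without a peak at rank 0 the median percentile was 0 in Ttk-depleted ECs, 32.1 in Pros-depleted EEs, 38.1 in ECs and 41 in EEs (0 over all genes in each). Ranks of -log10 p gave 2 genes at least 20 points higher in EEs than in ECs (10.5%), 1 higher and 3 lower in ECs than in progenitor cells (4.7% and 5.82%), and 1 higher in Ttk-depleted ECs than in ECs (3.23%), and ranks within promoter peaks gave 1 higher and 21 lower in ECs than in progenitor cells (7.85% and 21%). With a step of 10 points the higher and lower counts were 16 and 13 for EEs against ECs (28.4% and 28.6%), 8 and 32 for EEs against progenitor cells (20.8% and 31.2%), 7 and 24 for ECs against progenitor cells (20.2% and 30.3%) and 13 and 20 for Pros-depleted EEs against EEs (19.9% and 25.9%), and 5 were higher in Ttk-depleted ECs than in ECs (7.58%). A TCT initiator was found in 84 genes in the whole window (41.5%) and in 30 at the 5′-end TSS (1.81%), where an E-box was found in 8 (4.2%). The causes of these changes were not tested, except that fewer peaks or a smaller step change the counts by construction. No replicate could be left out with 1 library per population, and no paired analysis was possible because each group has 1 library. Depth, of which only the fragments at summits are known, limits what an absent peak means, above all in Ttk-depleted ECs.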
